A study of Mus musculus with 6 samples.

Results

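C-type lectin receptors and Siglecs were examined in leukaemia stem and progenitor cells by RNA sequencing. Every gene whose symbol begins with Clec and a digit or with Siglec was taken, together with Cd33, Cd22, Mag, Cd209a and Cd209b, which gave 43 of the 24015 genes counted. The 43 comprise 34 C-type lectin genes and 9 Siglec genes. The RNA came from sort-purified cells of mouse acute myeloid leukaemias that the MLL-AF9 fusion oncogene had started. In all 6 libraries the leukaemia descended from lin-cKit+ marrow progenitors of NIKERT2 mice, which carry the allele Rosa-loxp-STOP-loxp-NIK and the allele Rosa-CreERT2. The 3 LSPCT libraries came from mice given tamoxifen, which activates CreERT2 and so removes the stop in front of NIK, a kinase of the noncanonical NF-kB pathway. The 3 LSPC libraries came from untreated mice with leukaemia of the same origin, and disease was fully developed in both groups. Sex, age, strain background, sort gates and tamoxifen dose were not given in the sources used here, and tamoxifen, Cre activity and NIK cannot be told apart by this design.

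C-type lectin receptors are surface proteins with a calcium-dependent sugar-binding fold, though many members bind proteins or lipids instead. On myeloid cells the activating ones signal through the kinase Syk, either by a motif in their own tail, as Clec7a (Dectin-1) does, or through the adaptors FcRγ (Fcer1g) and DAP12 (Tyrobp). Inhibitory ones, such as Clec12a and Clec4a2, carry a tail motif that recruits phosphatases. Siglecs bind sialic acid on glycans, and most of them, among them Siglece, Siglecg and Cd22, restrain signalling through the phosphatase SHP-1 (Ptpn6). In human acute myeloid leukaemia, CD33 and CLEC12A are well-known surface antigens of the blasts.

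Libraries held 19999071 to 22454753 counts in LSPCT and 20410001 to 26773176 in LSPC. A count of 0 allows up to 3 counts, or 0.111 to 0.150 CPM (a gene's share of a library's counts, scaled to a fixed total) by library, for counting error only. Map3k14, the gene of NIK, stood at 129.8, 190.5 and 159 CPM in LSPCT, against 26.5, 24.2 and 28.8 CPM in LSPC. The 6 progenitor and leukaemia markers checked, Kit, Cd34, Hoxa9, Meis1, Myb and Ptprc, were expressed in every library. Their summed levels were 1646 to 2036 CPM in LSPCT and 1716 to 1784 CPM in LSPC. Single markers were less even: in LSPCT, Hoxa9 stood at 430, 159 and 154 CPM and Kit at 194, 126 and 139 CPM. Cd34 and Ptprc were instead lowest of the LSPCT libraries in replicate 1. On the second principal component LSPCT replicate 1 lay at 48.2, apart from LSPCT replicates 2 and 3 at -25.8 and -18.6, and LSPC replicate 3 carried high neutrophil transcripts. Whether the replicates are different animals is not stated in the labels, and the p-values therefore reflect between-library spread, which may be technical.

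Of the 43 genes, 6 had no count in any library, 11 had counts too low to test and 26 were tested. Siglec1, Clec5a, Siglece, Siglecg and Clec2d were higher in LSPCT, and Clec7a and Clec18a were lower (edgeR quasi-likelihood test, two-sided, Benjamini-Hochberg adjusted p under 0.05). These 7 are 26.9% of the tested members, beside 17.2% of all 12729 genes tested. The 5 that rose are 19.2%, beside 8.96% of all tested genes, and the 2 that fell are 7.69%, beside 8.24%. The groups did not overlap for 9 of the 26, or 34.6%, beside 37.7% of all tested genes. Of these, 6 were higher, beside 18.0% of all tested genes, and 3 were lower, beside 19.6%. The median log2 fold change was 0.16 for tested members and -0.003 for all tested genes. By family, 3 of 7 tested Siglecs rose and none fell, and 2 of 19 tested C-type lectins rose and 2 fell. No Siglec was lower at an unadjusted p under 0.05 in edgeR or past the threshold in DESeq2. Without LSPC replicate 1 or replicate 2, 3 of the 26 members were called higher, beside 4.46% and 5.08% of all genes tested in those settings. Without LSPC replicate 3, 8 were, beside 6.72%. Without LSPCT replicate 1, 4 members were called lower, beside 12.3% of all genes. Without LSPCT replicate 3 or LSPC replicate 1, 2 or 3, 1 was, beside 3.37% to 5.14%. Without both LSPCT replicate 1 and LSPC replicate 3, 9 were higher, beside 14.2%, and 3 were lower, beside 12.1%. As these are bulk samples, fewer cells of a type and less RNA per cell cannot be told apart in any of the values.

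**Figure D1:**
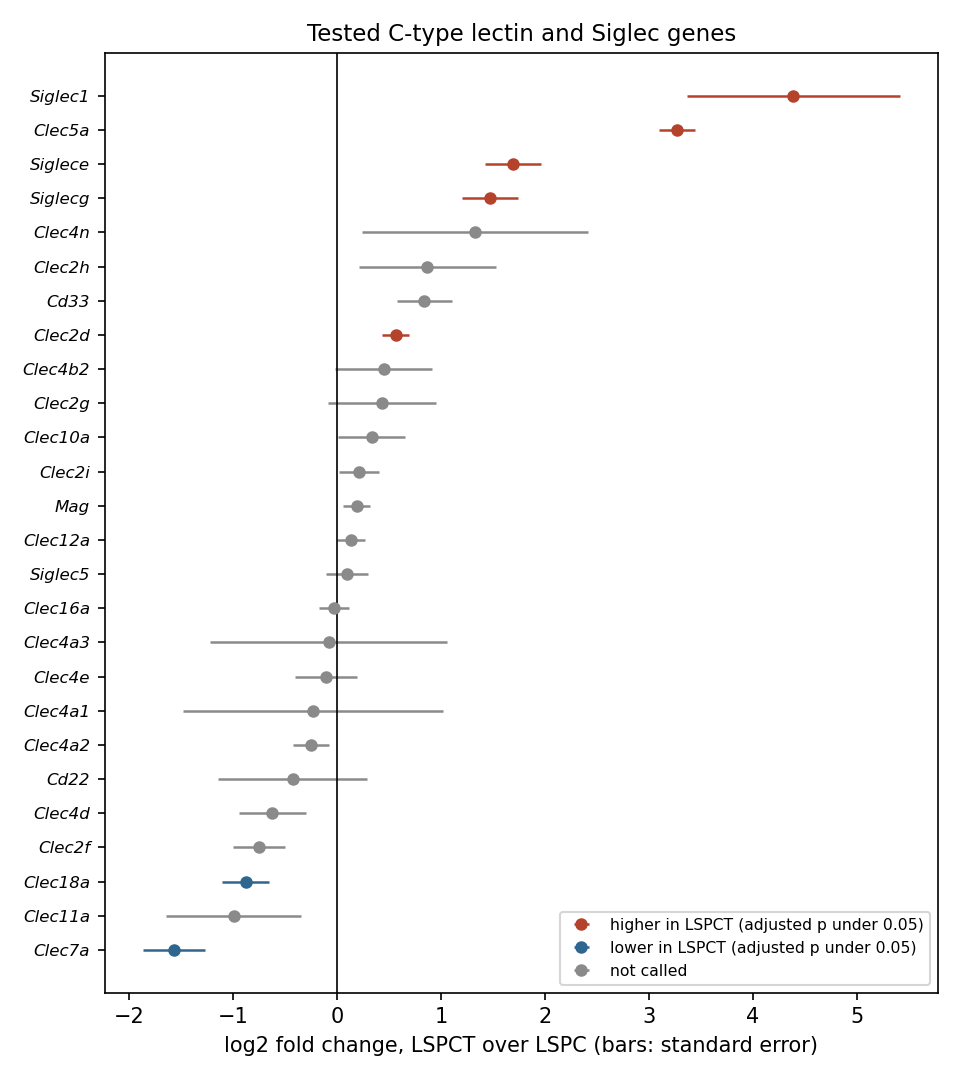
Log2 fold change of LSPCT over LSPC for the 26 tested genes, with standard errors as bars and genes ordered by fold change. Clec5a stands at 3.27 with a short bar, Siglec1 at 4.39 with a long one, and Clec7a is lowest at -1.57.

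Clec5a (MDL-1), an activating myeloid receptor that signals through DAP12, showed the smallest p among the members. Its level was 104, 152 and 149.9 CPM in LSPCT, against 12.2, 15.2 and 14.7 CPM in LSPC. The lowest LSPCT library was far above the highest LSPC library. Means were 135 ± 26.9 CPM in LSPCT and 14.0 ± 1.59 CPM in LSPC (SD, n = 3 each), and the log2 fold change was 3.27 (standard error, SE, 0.17; edgeR adjusted p = 2.79e-05), or 9.62-fold. The difference passed in all 15 alternative settings, with log2 values of 3.17 to 3.46. Clec5a shares no run of 50 bases with any other annotated transcript.

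Siglece, the main inhibitory Siglec of mouse neutrophils and macrophages, was the Siglec with the smallest p. It stood at 70.2, 74.5 and 59.9 CPM in LSPCT, against 23.8, 12.0 and 27.6 CPM in LSPC, and the groups did not overlap. Means were 68.2 ± 7.49 CPM in LSPCT and 21.1 ± 8.13 CPM in LSPC (SD, n = 3 each). Its log2 fold change was 1.69 (SE 0.27; edgeR adjusted p = 0.00453), or 3.22-fold. Siglecg, an inhibitory Siglec best known from B cells, had 44.0, 59.7 and 47.0 CPM in LSPCT and 14.4, 26.9 and 13.1 CPM in LSPC. It rose by 1.47 (SE 0.27; edgeR adjusted p = 0.00843), or 2.77-fold, again with no overlap and with means of 50.2 ± 8.31 CPM in LSPCT and 18.1 ± 7.64 CPM in LSPC (SD, n = 3 each). Both passed in all 15 alternatives. B cell markers were not called beside Siglecg. None of 3 tested B cell markers was called, Pax5 had no count in any library, and the 7 markers summed to 28.1 to 49.8 CPM in LSPCT and 41.5 to 47.0 CPM in LSPC, mostly from Cd79b.

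Cd33, a myeloid Siglec, followed the same direction without reaching the threshold. Its level was 187, 188 and 154 CPM in LSPCT, against 93.8, 60.9 and 141 CPM in LSPC. The groups did not overlap, but LSPC replicate 3 came close to the lowest LSPCT library. The log2 difference was 0.84 (SE 0.26; edgeR adjusted p = 0.0651). Without LSPC replicate 3 it was 1.196 and passed (edgeR adjusted p = 0.00829), and with limma voom it also passed (0.0445). It passed too in edgeR with no filter (0.0399) and without both LSPCT replicate 1 and LSPC replicate 3 (0.000893). In RefSeq's order of genes Siglecg, Cd33 and Siglece lie on chromosome 7, with 9 and 4 other protein-coding genes between them.

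**Figure D2:**
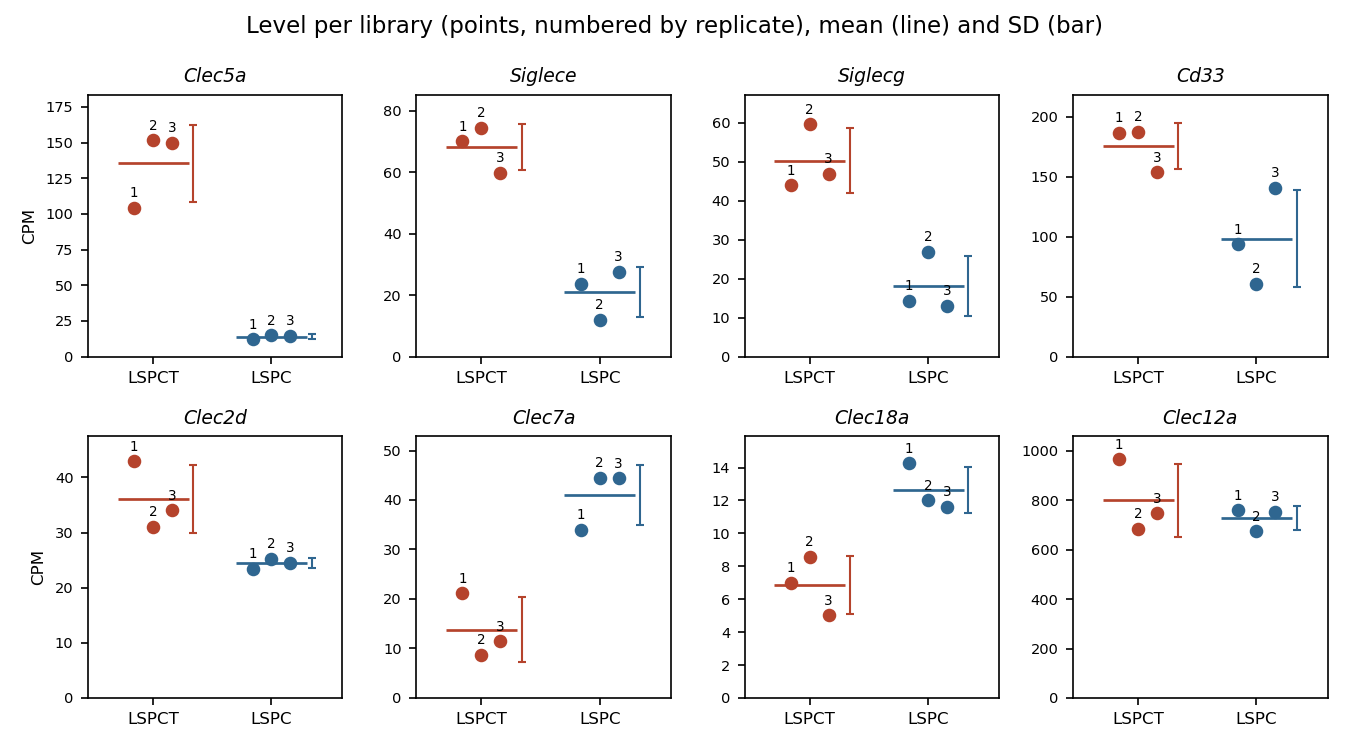
Level in CPM of 8 genes in each library, LSPCT left of LSPC, with points numbered by replicate, the group mean as a line and the SD as a bar (n = 3). Clec5a, Siglece, Siglecg and Cd33 have every LSPCT library above every LSPC library, Clec7a and Clec18a have every one below, and Clec12a overlaps.

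The windows upstream of the 4 called genes that held in every alternative are shown because no setting tried changed these calls. Each is the 250 bases before the start site in RefSeq, build GRCm38.p6, read on the gene's own strand; for genes with several starts the first listed was used. Capitals mark matches, on either strand, to GGG and CC with 5 bases of any kind between them, a loose form of the kappa B motif bound by NF-kB dimers, and to GAGGAA, the core of the motif of the myeloid factor PU.1. No matches overlapped each other in these 4 windows.
Clec5a, chr6:40585806-40586055, minus strand: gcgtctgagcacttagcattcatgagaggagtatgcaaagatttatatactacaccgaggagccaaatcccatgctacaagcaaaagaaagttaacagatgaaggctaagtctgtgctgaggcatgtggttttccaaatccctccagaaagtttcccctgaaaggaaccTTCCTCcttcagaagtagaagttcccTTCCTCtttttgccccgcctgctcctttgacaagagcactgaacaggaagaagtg
Siglece, chr7:43660162-43660411, minus strand: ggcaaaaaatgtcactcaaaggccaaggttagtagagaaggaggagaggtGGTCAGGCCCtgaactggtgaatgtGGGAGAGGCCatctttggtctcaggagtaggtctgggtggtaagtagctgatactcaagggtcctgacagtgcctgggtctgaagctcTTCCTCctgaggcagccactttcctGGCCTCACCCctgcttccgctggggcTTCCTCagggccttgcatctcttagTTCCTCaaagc
Siglecg, chr7:43407989-43408238, plus strand: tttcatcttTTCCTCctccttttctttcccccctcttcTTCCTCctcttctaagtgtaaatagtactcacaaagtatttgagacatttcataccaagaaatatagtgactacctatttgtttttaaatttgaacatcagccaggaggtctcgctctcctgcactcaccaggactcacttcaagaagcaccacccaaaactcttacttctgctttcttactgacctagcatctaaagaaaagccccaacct
Clec7a, chr6:129472780-129473029, minus strand: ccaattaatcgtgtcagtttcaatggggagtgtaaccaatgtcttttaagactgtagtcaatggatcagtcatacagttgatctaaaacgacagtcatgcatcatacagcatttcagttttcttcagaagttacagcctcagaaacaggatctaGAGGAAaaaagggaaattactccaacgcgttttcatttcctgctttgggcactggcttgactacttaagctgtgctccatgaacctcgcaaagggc

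In Siglece, 3 kappa B matches and 3 PU.1 cores were found. Clec5a and Siglecg each held 2 PU.1 cores, Clec7a held 1, and these windows had no match to the kappa B letters. The window of another listed Siglecg start held no PU.1 core. Among the 22 tested members with a window, 5 had the kappa B letters, beside 45.8% of 32851 windows searched. The PU.1 core was present in 15 of the 22, beside 23.3% of all windows, and in genes that rose, fell or were not called. Only the first listed start of each member was counted, and the PU.1 result differed between starts for Siglecg, Clec4a3 and Mag. A match describes letters in this window and is neither a binding site nor a cause.

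Clec7a, the receptor for fungal β-glucan, had the smallest p of the genes that fell. It stood at 21.2, 8.77 and 11.5 CPM in LSPCT, against 33.99, 44.5 and 44.4 CPM in LSPC. Every LSPCT library was below every LSPC library, and replicate 1 was the highest of the LSPCT libraries. Means were 13.8 ± 6.52 CPM in LSPCT and 40.95 ± 6.03 CPM in LSPC (SD, n = 3 each). The log2 fold change was -1.57 (SE 0.30; edgeR adjusted p = 0.00985), a level 2.97-fold lower, and the fall passed in all 15 alternatives. Without LSPCT replicate 1 the log2 value was -2.01. Clec7a belongs to a run of 6 members on chromosome 6 with no other protein-coding gene between them, from Clec12a to Clec7a. Of the others in that run, Clec12a alone could be tested.

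Clec12a, an inhibitory receptor for uric acid crystals and a marker of myeloid progenitors, made up 45.5 to 51.7% of all counts of the members in LSPCT and 53.4 to 58.2% in LSPC. Its level was 965, 685 and 749 CPM in LSPCT, against 759, 674 and 754 CPM in LSPC. The difference of 0.13 on the log2 scale (SE 0.13) did not pass (edgeR adjusted p = 0.536), and it was -0.02 without LSPCT replicate 1. Divided by the merged exon length of GENCODE M21, which is not the annotation of the counts, Clec12a also ranked first, with mean levels of 145 CPM per kilobase in LSPCT and 132 in LSPC. Next in LSPCT on that scale came Siglec5 with 40.6 (38.0 in LSPC), Siglece with 36.9 (11.4 in LSPC) and Clec5a with 35.2 (3.66 in LSPC). For Siglec5 the exon length was that of Siglecf, the gene it was matched to by synonym.

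Siglec5 is a name that RefSeq lists for both Siglecf, the eosinophil Siglec, and Siglece, which has its own row. Its level was 153, 93.4 and 93.4 CPM in LSPCT, against 121, 96.0 and 101 CPM in LSPC. The groups overlapped, and the log2 difference was 0.09 (edgeR adjusted p = 0.785), or -0.18 without LSPCT replicate 1. Of the eosinophil, basophil and mast cell markers, 1 of 5 tested, Prg3, was called and higher. That list summed to 195.5, 55.8 and 72.4 CPM in LSPCT and to 43.6 to 49.1 CPM in LSPC, while the eosinophil peroxidase gene Epx had 3 counts over LSPCT and 22 over LSPC. The part of such cells in the value of Siglec5 was not tested.

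Siglec1 (CD169, sialoadhesin), a Siglec of tissue macrophages that lacks an inhibitory motif, had the largest fold change of the tested members. It stood at 13.5, 1.39 and 2.61 CPM in LSPCT, against 0.149, 0.0847 and 0.557 CPM in LSPC. The groups did not overlap, but LSPCT replicate 1 was 6.76 times the mean of the other LSPCT libraries, and the LSPC values rest on 20 counts in all. The log2 fold change was 4.39 (SE 1.02; edgeR adjusted p = 0.0222). Without LSPCT replicate 1 it was 2.85 (edgeR adjusted p = 0.0180). Without LSPC replicate 3 it was 5.60 (edgeR adjusted p = 0.0307). It missed the threshold with limma voom (0.0849) and without LSPC replicate 1 (0.0963) or replicate 2 (0.0791).

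Of 11 macrophage markers, 8 were also highest in LSPCT replicate 1. Cd68 was not, at 97.4 to 105 CPM in LSPCT and 113 to 121 CPM in LSPC, with every LSPCT library below every LSPC library. Marco was highest in LSPC replicate 3 and Vsig4 in LSPCT replicate 2. In the test of 9 of them, 6 were higher, or 66.7% beside 8.96% of all tested genes. None was lower, beside 8.24%. The 11 summed to 653, 283 and 329 CPM in LSPCT and to 195 to 229.5 CPM in LSPC, with most of the LSPC sum from Emr1 and Cd68. The complement gene C1qa stood at 92.5, 8.03 and 14.3 CPM in LSPCT, against 3.63, 0.339 and 2.004 CPM in LSPC. Mrc1, the mannose receptor gene and itself a C-type lectin, was at 57.0, 6.31 and 18.1 CPM in LSPCT and at 1.89, 0 and 0.445 CPM in LSPC. Both C1qa and Mrc1 were highest in LSPCT replicate 1, as Siglec1 was. The part of macrophage RNA in the rise of Siglec1 was not tested. For Siglece, Siglecg and Clec5a, LSPCT replicate 1 was at 1.04, 0.826 and 0.691 times the mean of the other LSPCT libraries. The part of macrophage or other mature myeloid RNA in their rise was not tested either.

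**Figure D3:**
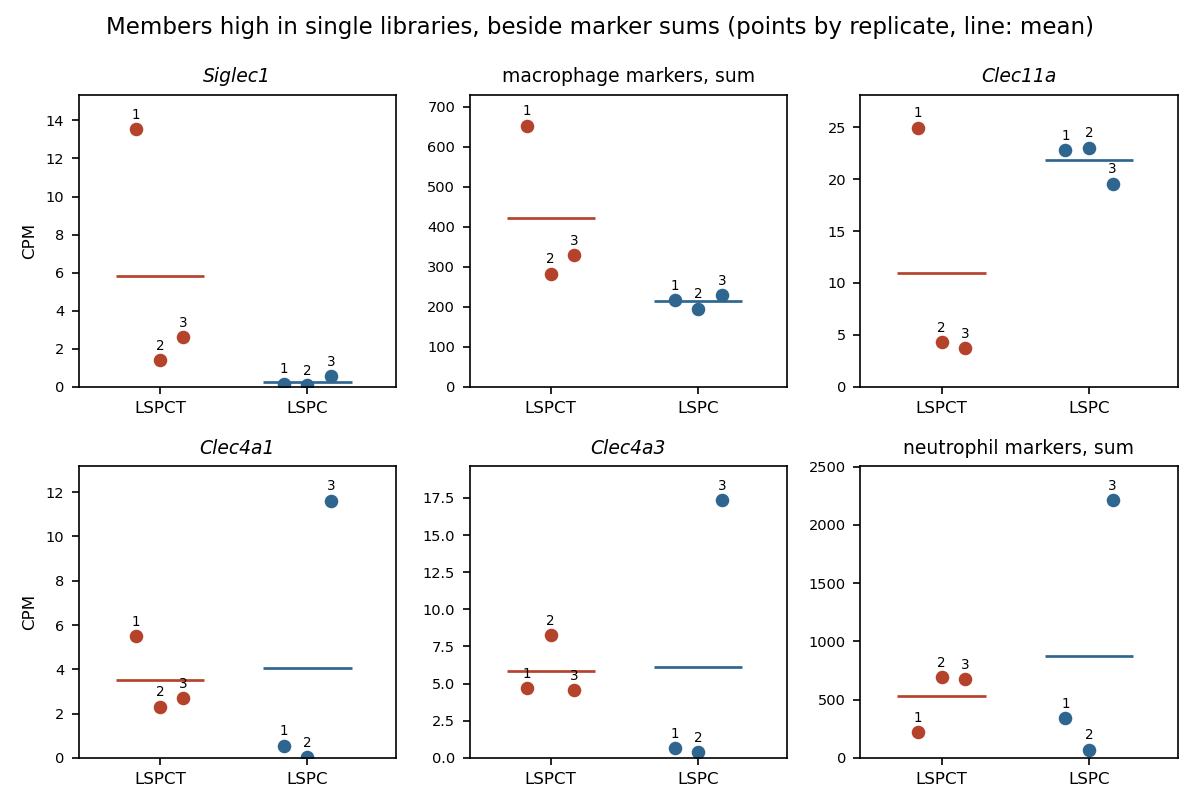
Level in CPM per library for Siglec1, Clec11a, Clec4a1 and Clec4a3, with summed macrophage and neutrophil markers, LSPCT left of LSPC, points numbered by replicate and lines at group means. LSPCT replicate 1 is highest for Siglec1 and the macrophage sum, and LSPC replicate 3 for Clec4a1, Clec4a3 and the neutrophil sum.

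The Dectin-2 cluster on chromosome 6 holds 9 of the genes, from Clec4a1 to Clec4e, with no other protein-coding gene between them. None of its 7 tested members was called in either direction, beside 17.2% of all tested genes, which for so few genes is no result about the cluster. Clec4a2 (DCIR), an inhibitory receptor of myeloid and dendritic cells, stood at 38.6, 48.4 and 45.6 CPM in LSPCT and at 56.1, 39.0 and 62.4 CPM in LSPC. Clec4e (Mincle), a receptor for mycobacterial glycolipid, had 16.3, 10.7 and 12.9 CPM in LSPCT and 10.2, 11.5 and 21.2 CPM in LSPC. Both overlapped between groups, with log2 differences of -0.25 and -0.11. Clec4d (MCL), the partner of Clec4e, ranged from 3.39 to 6.34 CPM in LSPCT and from 5.66 to 9.13 CPM in LSPC (log2 -0.62, edgeR adjusted p = 0.231), and passed as lower without LSPCT replicate 1 (log2 -0.95, edgeR adjusted p = 0.0403). Clec4b2, another gene of the cluster, ranged from 12.4 to 40.2 CPM in LSPCT, highest in replicate 1, and from 9.07 to 23.6 CPM in LSPC (log2 0.45, and -0.17 without LSPCT replicate 1).

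For 3 genes of that cluster 1 library decided the comparison. Clec4a3, a relative of DCIR, had 4.69, 8.26 and 4.56 CPM in LSPCT, against 0.646, 0.381 and 17.3 CPM in LSPC. Clec4a1, another relative, had 5.49, 2.32 and 2.70 CPM in LSPCT, against 0.547, 0.0424 and 11.6 CPM in LSPC. Clec4n (Dectin-2), a receptor for fungal mannan, had 9.94, 3.29 and 4.02 CPM in LSPCT, against 0.745, 0.0424 and 5.97 CPM in LSPC. In each case LSPC replicates 1 and 2 lay below every LSPCT library, and LSPC replicate 3 lay among or above them. With all libraries the log2 differences were -0.08, -0.23 and 1.33 (edgeR adjusted p = 0.972, 0.921 and 0.452). Without LSPC replicate 3 they were 3.51, 3.60 and 3.91 and passed (edgeR adjusted p = 0.00443, 0.0382 and 0.0369).

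Neutrophil transcripts were high in the same library. All 9 neutrophil markers were tested and none was called, beside 17.2% of all tested genes. They summed to 219, 694 and 677 CPM in LSPCT and to 341, 70.0 and 2211 CPM in LSPC. The granule gene Ngp stood at 44.6, 136 and 131 CPM in LSPCT, against 70.9, 0.847 and 620.0 CPM in LSPC. Lcn2 alone on that list was not highest in LSPC replicate 3. It had 35.6, 176 and 143 CPM in LSPCT, against 26.0, 19.1 and 85.4 CPM in LSPC. LSPC replicate 2, with the least neutrophil RNA, was also the lowest library for Clec4a1, Clec4a3 and Clec4n. Within LSPCT the order was not the same. Replicate 1 had the lowest neutrophil sum of that group but its highest Clec4a1 and Clec4n, at 5.49 and 9.94 CPM. LSPC replicate 1 had a higher neutrophil sum than LSPCT replicate 1, with Clec4a1 at 0.547 and Clec4n at 0.745 CPM. Of the 6 monocyte markers, Csf1r was higher and Ly6c2 lower, or 33.3% called beside 17.2% of all tested genes. The 6 summed to 1058, 1393 and 1729 CPM in LSPCT. In LSPC they summed to 1047, 1576 and 1387 CPM, so LSPC replicate 3 was not the highest library for the sum. Single markers differed: Ccr2 and Fn1 were highest in LSPC replicate 3, at 40.9 and 275 CPM. Ly6c2, Csf1r, Cx3cr1 and F13a1 were highest in other libraries. The part of mature myeloid cells in these values was not tested.

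Clec11a, which encodes a secreted growth factor of bone marrow, was split within the LSPCT group. It stood at 24.97, 4.27 and 3.71 CPM in LSPCT, against 22.8, 23.0 and 19.6 CPM in LSPC. LSPCT replicate 1 was at the level of the LSPC libraries and the other LSPCT libraries were far below it. The log2 difference was -0.99 (edgeR adjusted p = 0.340), and without LSPCT replicate 1 it was -2.44 and passed (edgeR adjusted p = 4.47e-05).

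Among the Clec2 genes, several of which encode ligands of natural killer cell receptors, Clec2d (Clr-b) rose. Its level was 43.0, 31.1 and 34.1 CPM in LSPCT, against 23.5, 25.2 and 24.5 CPM in LSPC, with no overlap. The log2 fold change was 0.56 (SE 0.13; edgeR adjusted p = 0.0236), and it missed the threshold without LSPC replicate 1, 2 or 3 (0.0671 to 0.103). Clec2f went the other way, with 4.44, 4.45 and 6.59 CPM in LSPCT, against 7.70, 10.6 and 7.76 CPM in LSPC. Its groups did not overlap, and its log2 difference of -0.75 did not pass in edgeR (adjusted p = 0.0765) but passed in DESeq2 (0.0393). Clec2i (Clr-g) had 38.5, 22.7 and 33.2 CPM in LSPCT and 24.6, 26.2 and 30.7 CPM in LSPC, which overlapped (log2 0.21). Clec2h and Clec2g stayed at or below 1.86 CPM in every library, with log2 differences of 0.87 and 0.43. Without LSPC replicate 3 that of Clec2h was 2.02 (edgeR adjusted p = 0.108). The inhibitory receptor for Clec2d, Klrb1b, is a gene of natural killer cells and was at 0.200 to 0.398 CPM in LSPCT and at 0 to 0.447 CPM in LSPC.

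Clec18a, which encodes a secreted lectin, fell. It stood at 6.99, 8.58 and 5.04 CPM in LSPCT, against 14.3, 12.0 and 11.6 CPM in LSPC, without overlap. The log2 fold change was -0.88 (SE 0.23; edgeR adjusted p = 0.0336), and the threshold was missed without LSPCT replicate 3 (0.0788) or without LSPC replicate 1, 2 or 3 (0.0622 to 0.138). Clec16a, an endosomal regulator of mitophagy that carries the family name, did not differ detectably, at 22.5 to 31.4 CPM in LSPCT and 26.5 to 31.3 CPM in LSPC (log2 -0.03, SE 0.14). Clec10a, a galactose-binding lectin of macrophages and dendritic cells, ranged from 2.25 to 3.76 CPM in LSPCT and from 1.99 to 3.01 CPM in LSPC. Mag, the myelin-associated Siglec, was counted at 40.2, 38.2 and 31.9 CPM in LSPCT and at 35.0, 27.9 and 33.9 CPM in LSPC (log2 0.19, edgeR adjusted p = 0.359). Cd22, its direct neighbour and a B cell inhibitor, lay between 0.699 and 2.43 CPM in LSPCT and between 0.696 and 3.90 CPM in LSPC. Its log2 difference was -0.42, or 0.71 without LSPC replicate 3, and 9.5% of its exon bases are shared with a transcript on the opposite strand.

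The 17 genes that were not tested include markers of cells outside this lineage. No library had a count for Clec14a (endothelium), Clec4f (Kupffer cells), Clec4g (liver sinusoid), Clec1a, Clec2e or Cd209b. Cd209a, a DC-SIGN homologue of dendritic cells, had no count over LSPCT and 2 over LSPC. Clec9a, a receptor of cross-presenting dendritic cells, had 15 counts over LSPCT and 22 over LSPC. Siglech, of plasmacytoid dendritic cells, had 15 over LSPCT and 7 over LSPC. Of 6 tested markers of those cells 3 were higher (Ly6d, Ccr9 and Spib), beside 8.96% of all tested genes. Bst2 (log2 0.30), Cox6a2 (1.51) and Tcf4 (-0.097) were not called (edgeR adjusted p of 0.063 to 0.841). Pacsin1, also on the list, was not tested and had no count over LSPCT and 7 over LSPC. The list summed to 106 to 150.4 CPM in LSPCT and 88.5 to 102 CPM in LSPC. The part of those cells in the value of Siglech was not tested. Clec1b, the platelet receptor for podoplanin, had 15 over LSPCT and 29 over LSPC. Siglec15, an osteoclast receptor, had 0, 3 and 6 counts in LSPCT and none in LSPC. Clec4b1 had 19, 3 and 4 counts in LSPCT and 0, 1 and 3 in LSPC, and Clec12b had 0, 2 and 2 in LSPCT and 3, 1 and 13 in LSPC. The remaining 4, Clec4a4, Clec2l, Clec3a and Clec3b, had 2 to 16 counts each over LSPCT and 2 to 5 over LSPC.

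Of 29 tested adaptors and kinases that carry receptor signals, 5 rose and 2 fell, with a median log2 fold change of 0.02. The share that rose was 17.2%, beside 8.96% of all tested genes, and the share that fell was 6.90%, beside 8.24%. Syk (log2 -0.02), Card9 (-0.10) and Fcer1g (0.03) were not called (edgeR adjusted p of 0.557 to 0.876). Tyrobp, the adaptor through which Clec5a signals, had 329, 303 and 282 CPM in LSPCT, against 379, 350.0 and 433 CPM in LSPC. The groups did not overlap, and the log2 value of -0.35 missed the threshold (edgeR adjusted p = 0.0557). It passed in DESeq2 (0.0171), in edgeR with no filter (0.0488) and without LSPCT replicate 1 (0.0253). Without both that library and LSPC replicate 3 it passed as well (edgeR adjusted p = 0.0297). Ptpn6, the SHP-1 phosphatase of inhibitory Siglecs, rose slightly, with 689, 696 and 658 CPM in LSPCT, against 519, 477 and 554 CPM in LSPC (log2 0.40, SE 0.08; edgeR adjusted p = 0.0139). It missed the threshold without LSPC replicate 1 (0.0682) or replicate 2 (0.0666). The exchange factor gene Vav2 (log2 1.10), the kinase gene Prkcd (0.67) and the adaptor gene Blnk (3.71) also rose, while the adaptor gene Lat2 (-1.27) fell. Blnk rested on 51 counts over LSPCT and 4 over LSPC, and missed the threshold without LSPC replicate 1, 2 or 3 (0.0589 to 0.0638).

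Genes that build or carry Siglec ligands changed in both directions. Of 29 tested, 7 rose, or 24.1% beside 8.96% of all tested genes, and 4 fell, or 13.8% beside 8.24%. The median log2 fold change was -0.0008. St6gal1, whose product makes the α2,6-linked sialic acid that Cd22 binds, had 53.7, 75.6 and 88.1 CPM in LSPCT, against 1.49, 1.74 and 3.71 CPM in LSPC (log2 4.94, SE 0.34; edgeR adjusted p = 0.000103). The GD3 synthase gene St8sia1 (log2 2.71), St6galnac2 (4.74) and St6galnac1 rose as well. St6galnac2 was highest in LSPCT replicate 1, at 23.5 CPM with 4.13 and 6.72 CPM in the others, and its log2 value was 3.67 without that library. St6galnac1 had 1020 counts over LSPCT and 5 over LSPC, at or under the floor of 3 counts in each LSPC library, so its fitted log2 value of 7.73 depends on the prior count. Cd24a, a protein ligand of Siglecg, fell to 75.5, 33.5 and 38.7 CPM in LSPCT, against 190, 186 and 207 CPM in LSPC (log2 -1.98, SE 0.28; edgeR adjusted p = 0.00267). The polysialyltransferase gene St8sia4 fell by 1.52 on the log2 scale. Whether surface sialic acid or receptor binding differed was not measured.

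Of 24 other genes with a C-type lectin fold that were tested, 7 fell, or 29.2% beside 8.24% of all tested genes, and 3 rose, or 12.5% beside 8.96%. Their median log2 fold change was -0.04. Cd93 stood at 159, 143 and 188 CPM in LSPCT, against 334, 463 and 337 CPM in LSPC (log2 -1.21, SE 0.16; edgeR adjusted p = 0.00171). Thrombomodulin (Thbd, log2 -1.08) and the activating natural killer receptor gene Klrk1 (-2.53) fell. Klrk1 missed the threshold without LSPCT replicate 2 or 3 or LSPC replicate 2 (0.0869 to 0.0978). Mrc1 (log2 5.18), Prg3 (3.58) and Susd5 (2.15) were those that rose. In limma voom Mrc1 was not called (adjusted p = 0.109). Mrc1 and Prg3 also stood on the macrophage and eosinophil lists, and both were highest in LSPCT replicate 1, without which their log2 values were 4.03 and 2.68. Without that library Klrk1 was at -3.28.

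**Figure D4:**
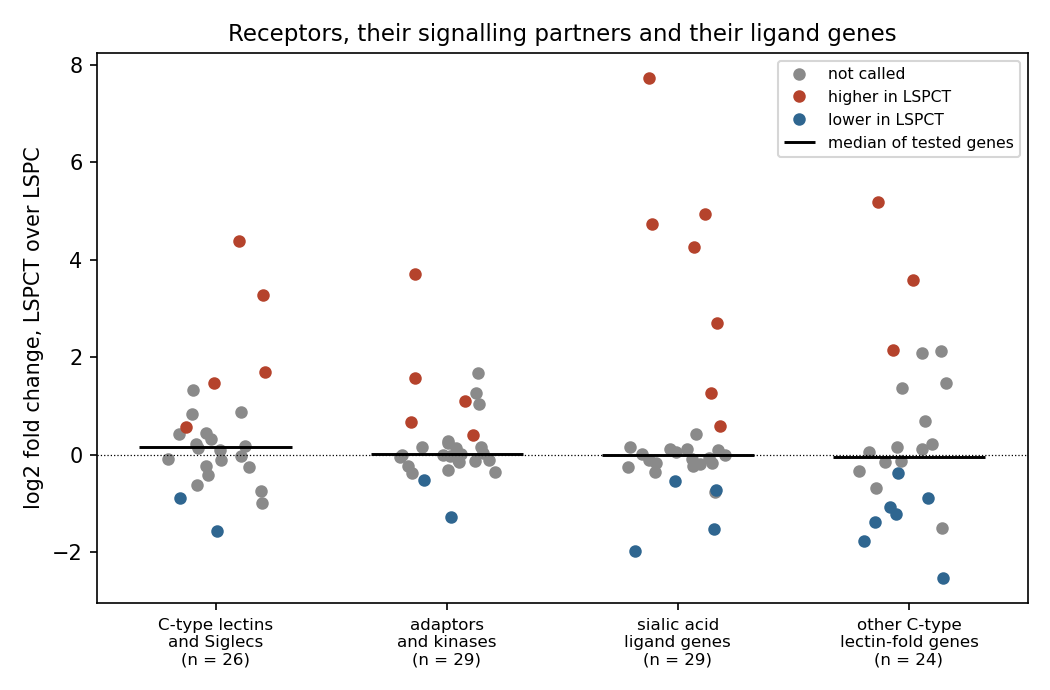
Log2 fold change of LSPCT over LSPC for each tested gene of 4 lists, coloured by call, with the median of tested genes as a line; horizontal scatter within a list has no meaning. Medians lie between -0.04 and 0.16, and the sialic acid ligand genes include the highest point, St6galnac1 at 7.73, which rests on 5 counts over LSPC.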

How the data were processed

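RNA from sorted leukaemia cells was sequenced, and the titles set each library's group. The deposited values are raw counts, whole numbers per gene symbol. The submitters' processing notes list TopHat2 (2.1.0), featureCounts, FastQC, DESeq2 and build mm9; annotation, strand setting and treatment of multi-mapped reads were not given in the sources used here. Where strand was ignored, antisense reads are included.

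Counts were scaled by TMM, filtered with filterByExpr (minimum 10 counts) and tested in edgeR 4.0.16 (glmQLFit and glmQLFTest, R 4.3.3) with group as the only term. P-values were adjusted over 12729 genes, and SE was taken as |log2 fold change| divided by √F. The floors cover counting error only, while SE and SD include the spread between libraries. Alternatives were other scalings and filters, DESeq2 1.42.0, limma 3.58.1 voom, a replicate block and omission of libraries. Omitting LSPCT replicate 1 with LSPC replicate 3 was chosen after seeing the data. The edgeR step was tested on simulated counts.

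Members and lists were chosen with earlier results of these data known. Members that passed, or averaged at least 5 CPM in either group, were described in full. Of other lists up to 6 passing genes with the smallest p were named, and Syk, Card9, Fcer1g, Tyrobp, Ptpn6 and Map3k14 always; some genes of these lists are not reported here. Single marker genes and Klrb1b were singled out after their values were seen. Symbols were matched to RefSeq (GRCm38.p6), 42 by symbol and 1, Siglec5, by synonym to Siglecf. Of 50-base runs in GENCODE M21 transcripts, called members shared 0.0 to 4.6% with other genes, and members in all up to 15.7% (Clec4a4).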

Additional observations from a re-analysis of the deposited data

How the results depend on the processing

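Clec5a, Siglece, Siglecg and Clec7a kept their direction and call in all 15 alternatives; Siglec1, Clec2d and Clec18a kept their direction and lost the call in some. Over all member values, 344 kept direction and side of the threshold, 10 lost a call, 14 gained one and 24 changed sign; 4 values, of Clec4a1 and Clec4a3, are in both of the last groups. Leaving out 1 library gave 3 to 8 members higher, 1 to 4 lower, 586 to 1657 of all genes higher and 443 to 1592 lower. Without both LSPCT replicate 1 and LSPC replicate 3, 9 members and 1818 of all genes were higher. The replicate numbers did not pair the libraries (correlations of deviations 0.118, -0.115 and 0.106); with the replicate block 5 members were higher and 2 lower, and of all genes 959 were higher and 833 lower. The block gave log2 values of 1.75 for Clec4a1 and 1.72 for Clec4a3, and Klrk1 missed the threshold (adjusted p = 0.0532). With limma voom these values were 1.98 for Clec4a1 and 1.59 for Clec4a3. Upper quartile factors gave 5e-04 for Clec16a and 0.011 for Syk.

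Over the settings that left out libraries, log2 values changed sign within these ranges: Clec16a -0.12 to 0.11, Clec4a1 -0.81 to 3.60, Clec4a3 -0.64 to 3.65, Clec4b2 -0.17 to 0.77, Clec4e -0.29 to 0.30, Clec2g -0.12 to 0.80, Clec12a -0.0195 to 0.23, Cd22 -1.08 to 1.02, Siglec5 -0.21 to 0.23, Syk -0.0586 to 0.0294 and Fcer1g -0.0555 to 0.15. The cause of these changes was not tested. Depth limits Blnk, St6galnac1 and Siglec1, with 4, 5 and 20 counts over LSPC, and the 17 genes left untested.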
